A study of Drosophila melanogaster with 2 samples.

Results

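The X chromosome carried 602 of the 3203 peaks mapped for Sloppy paired 2 (Slp2), a transcription factor of the forkhead family, in Drosophila melanogaster embryos. They were taken by chromosome name alone from the authors' list cut at an irreproducible discovery rate (IDR), a measure of how peak ranks recur across replicates. Its rows are the strongest 3203 of the list pooled over both replicates, so a single peak need not be strong in each replicate. The X peaks were set beside the 1999 peaks of the IDR list on the autosomal arms 2L (580 peaks), 3L (664 peaks) and 3R (755 peaks). Arm 2R and chromosome 4 were not used here. The embryos were whole, of mixed sex and 0 to 24 h old, from strain 9T-GFP, a transgenic line that stably expresses Slp2 with green fluorescent protein (GFP) joined to its C terminus. Chromatin was sheared to 200 to 800 bp, precipitated with an antibody against GFP and sequenced. The 2 samples are biological replicates 2 and 3 of this 1 group, and there was no second condition. The labels do not say whether the endogenous slp2 gene is intact, and an input or mock sample was not analysed here. The number of reads is unknown, so the precision that depth gives cannot be stated.

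Slp2 and its neighbour Slp1 are pair-rule and segment polarity regulators, and forkhead proteins bind DNA through a winged-helix domain that prefers a TAAACA core. In Drosophila the X is present once in male and in paired copies in female cells, and the male X is transcribed at a raised rate through the MSL complex and the roX RNAs. Compared with autosomes, the X is also known for its abundant short dinucleotide repeats. In mixed-sex embryos the number of X copies, the number of cells that make Slp2 and the occupancy per cell cannot be told apart in a peak's signal.

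The sequences at the 8 strongest X peaks are given first, in order of signal, to show what lies under the leading summits. Each is the 101-base window centred on the summit, read on the plus strand of dm6, with matches to the motif letters searched here in capitals. The capitals mark TAAACA, the forkhead core, and in the Raf window CTCTC, the reverse complement of GAGAG.
Ugalt promoter, chrX:2703842-2703942: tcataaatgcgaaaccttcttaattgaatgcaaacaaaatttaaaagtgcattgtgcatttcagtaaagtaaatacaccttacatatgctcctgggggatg
ph-p promoter, chrX:2137282-2137382: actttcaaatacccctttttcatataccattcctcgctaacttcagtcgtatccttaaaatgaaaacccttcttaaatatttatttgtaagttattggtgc
CG32772 intron, chrX:4910332-4910432: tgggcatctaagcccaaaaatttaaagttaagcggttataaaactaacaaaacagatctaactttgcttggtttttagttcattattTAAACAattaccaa
lncRNA:Vinr exon, chrX:12751382-12751482: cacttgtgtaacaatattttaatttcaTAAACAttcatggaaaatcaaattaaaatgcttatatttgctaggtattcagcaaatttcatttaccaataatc
Atf3 promoter, chrX:1275452-1275552: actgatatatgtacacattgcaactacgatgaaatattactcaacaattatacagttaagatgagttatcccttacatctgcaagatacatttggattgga
Tlk intron, chrX:3742175-3742275: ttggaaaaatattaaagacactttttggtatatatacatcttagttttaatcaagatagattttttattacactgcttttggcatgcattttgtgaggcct
NFAT intron, chrX:13640473-13640573: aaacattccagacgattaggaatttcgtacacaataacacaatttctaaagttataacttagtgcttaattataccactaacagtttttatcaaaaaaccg
Raf intron, chrX:2297681-2297781: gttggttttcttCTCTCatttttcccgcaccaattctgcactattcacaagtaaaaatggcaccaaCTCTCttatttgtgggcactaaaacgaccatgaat

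Of the windows of this kind at the 20 strongest X peaks, 4 held the forkhead core and 15 held none of the 8 motifs searched. Widening to 100 bp on each side of the summit brought the number with TAAACA to 5 and with GAGAG to 6. The G+C content over the 201 bases around the 20 summits was 32.3% to 49.8% (median 39.8%), against 42.5% over the whole of X. Over all 602 X peaks the median was 36.8%.

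The strongest X peak lay in the promoter of Ugalt, which encodes a Golgi UDP-galactose transporter, with its summit 40 bp upstream of the transcription start site (TSS). Its signal value, a score of the authors' peak caller without a stated scale, was 602 in replicate 2, 711 in replicate 3 and 1304 in the pooled data, which ranked it as number 3 of the whole IDR list. The next lay inside the gene body of ph-p, a Polycomb group subunit, 477 bp upstream of an internal start site. It had 463 in replicate 2 and 529 in replicate 3. Both stood well above the third X peak, in an intron of CG32772, which had 392 in replicate 2 and 374 in replicate 3.

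A peak in the exon of lncRNA:Vinr, a non-coding RNA gene, whose nearest protein-coding start was that of CG4004, had 310 in replicate 2 and 417 in replicate 3. The peak 218 bp upstream of Atf3, a bZIP transcription factor, had 297 and 332 in replicates 2 and 3. An intron of Tlk, a Tousled-like kinase, had 292 and 272, and an intron of the transcription factor NFAT had 253 and 225. The median X peak had 55.5 in replicate 2 and 50.4 in replicate 3. These leading X peaks were picked by pooled signal, so their standing above it follows from the choice. The intronic peak of Raf, the kinase that relays Ras signals to the MAP kinase cascade, had 256 in replicate 2 and 228 in replicate 3.

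The remaining 12 of the 20 were an intron of LPCAT, a lysophospholipid acyltransferase, the promoters of MFS10, dnc, TRAM, CBP, Ptpmeg2, sgg and CG3009, introns of CG3726 and norpA, and intergenic sites nearest to CG17896 and CG3149. Here dnc encodes a cAMP phosphodiesterase, Ptpmeg2 a tyrosine phosphatase, norpA the phospholipase C of phototransduction and sgg the fly GSK3 kinase. Over the 20 peaks the signal value ran from 176 to 602 (median 224) in replicate 2 and from 143 to 711 (median 224) in replicate 3. Of them, 11 were higher in replicate 3 and 9 in replicate 2, and log2 of replicate 3 over replicate 2 ran from -0.53 at sgg to 0.43 at CG4004. Their summits fell in promoters at 10, introns at 7, intergenic sequence at 2 and another exon at 1.

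**Figure D1:**
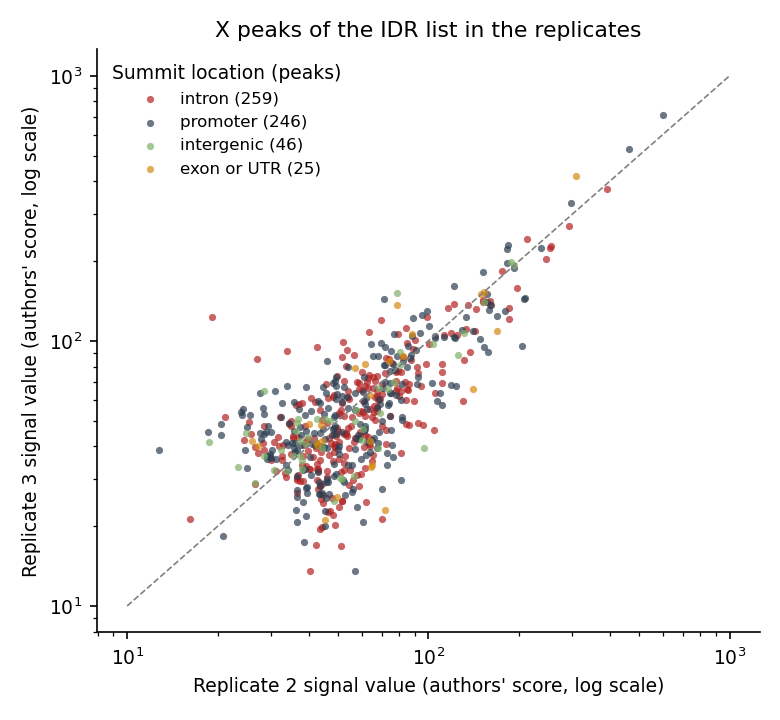
Signal value in replicate 2 (x axis, log scale) and replicate 3 (y axis, log scale) of the 576 X peaks of the IDR list that were matched to an entry of their own in both replicate lists, coloured by summit location, with the line of equal values dashed. The promoter peaks of Ugalt and ph-p stand at the upper right, and 53 of 576 peaks differ more than 2-fold between the replicates.

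Among the 602 X peaks, 599 had a summit within 200 bp in the relaxed list of each replicate, and 445 (73.9%) were held by the strongest 3203 peaks of both replicates. On the autosomal arms the share held by both was 70.4%, so that X was higher by 3.49 percentage points with an interval of -1.60 to 8.24 that includes 0. The strongest set of replicate 3 held 88.9% of the X peaks and 84.7% of the autosomal ones. That of replicate 2 held 83.6% of the X peaks and 83.9% of the autosomal ones. The median of log2 replicate 3 over replicate 2 was -0.12 on X (95% interval -0.17 to -0.07) and -0.14 on the autosomal arms (95% interval -0.18 to -0.12), and these intervals overlap.

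Some summits could not be separated in this way. The replicate value is that of the nearest listed summit within 200 bp, which can be a weaker or a stronger neighbour, and 24 X peaks shared a replicate entry with another X peak. Without these, 53 of 576 X peaks differed more than 2-fold between the replicates, 35 lower and 18 higher in replicate 3, and the median of log2 replicate 3 over replicate 2 was -0.11 (95% interval -0.16 to -0.06).

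The first comparison asked whether X held as many peaks as its length would give. It held 25.6 peaks per Mb against 23.9 on the autosomal arms, a ratio of 1.07 with a 95% interval of 0.976 to 1.17 that includes 1. The single arms had 24.7 peaks per Mb on 2L, 23.6 on 3L and 23.5 on 3R. With the strongest peaks of replicate 2 alone the ratio was 1.01 (0.923 to 1.11), and with those of replicate 3 alone it was 1.12 (1.02 to 1.22). Counted per protein-coding gene instead of per Mb, X held 0.274 peaks per gene against 0.227 on the autosomal arms, a ratio of 1.21 (1.10 to 1.33). X has 93.3 protein-coding genes per Mb, against 113 on 2L, 97.4 on 3L and 107 on 3R. The intervals are exact for counts, treat peaks as independent and cover counting error only, since 2 replicates give no spread between embryos. With 1 X and 3 autosomal arms, an exact permutation over the arms could not give a p below 0.25, so none is given.

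X peaks were about as strong as autosomal ones. The median signal value in the IDR list was 104 on X (95% interval 98.3 to 109) and 102 on the autosomal arms (98.7 to 104), within a range of 97.6 on 3R to 107 on 2L. Over the strongest peaks of replicate 2 alone the medians were 57.2 on X and 56.0 on the autosomal arms, and over those of replicate 3 alone they were 48.5 on X and 48.2 on the autosomal arms. The top 10% of the peaks by signal held 60 of the 602 X peaks, 9.97%, and 200 of the 1999 autosomal peaks, a difference of -0.04 percentage points (-3.12 to 3.59). The weakest X peak of the list had 65.6, and the strongest X peak that the list left out had 65.4. The caller's -log10 q value stood at its maximum of 3.69 for 470 of the 602 X peaks, so signal was used to rank them.

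The replicates differed in how the density on X varied with rank. Among the peaks of ranks 3204 to 10000, X had 0.742 times as many per Mb as the autosomal arms in replicate 3 (0.691 to 0.796) and 0.944 times in replicate 2 (0.884 to 1.01). For ranks 10001 to 30000 the ratio was 0.773 (0.742 to 0.805) in replicate 3 and 0.982 (0.946 to 1.02) in replicate 2. Among the strongest 300 it was 1.04 (0.752 to 1.41) in replicate 3 and 1.16 (0.851 to 1.56) in replicate 2. For ranks 301 to 1000 it was 1.23 (1.02 to 1.49) in replicate 3 and 0.960 (0.779 to 1.17) in replicate 2. The relaxed lists hold background by design, per the deposited readme files, so these weak entries are not called peaks. Fewer weak X entries were thus clear in replicate 3, while in replicate 2 both intervals reached 1.

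**Figure D2:**
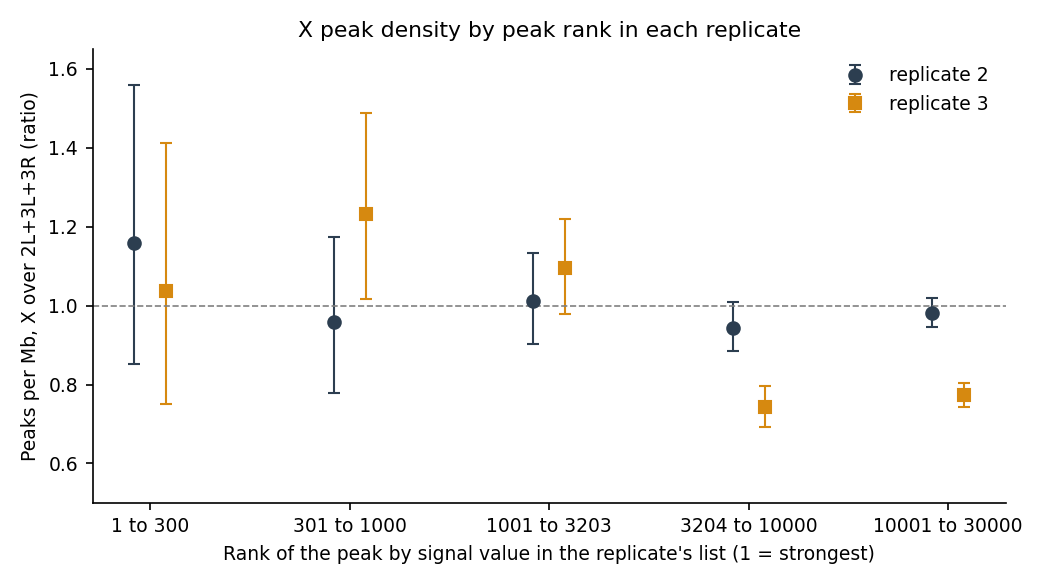
Ratio of peaks per Mb on X to those on 2L, 3L and 3R together (y axis) in successive ranks of each replicate's relaxed list (x axis), with exact 95% intervals and the line of equal density dashed. From rank 3204 on, replicate 3 lies at 0.742 and 0.773, while replicate 2 lies at 0.944 and 0.982.

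The summits of X peaks lay in introns far more often than those of autosomal peaks. Introns held 266 of 602 X summits, 44.2% (95% Wilson interval 40.3% to 48.2%), against 29.7% on the autosomal arms. The single arms had 28.8% on 2L, 28.8% on 3L and 31.3% on 3R, so X stood outside their range. The difference was 14.5 percentage points, with an interval of 9.09 to 19.9 at a level of 95% over the 3 locations compared. It was 15.8 (10.2 to 21.4) with the strongest peaks of replicate 2 and 15.3 (10.04 to 20.6) with those of replicate 3.

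Promoters, within 500 bp of the TSS of a protein-coding gene, held 263 X summits. This was 43.7% (39.8% to 47.7%), against 52.0% on the autosomal arms, with 50% on 2L, 51.2% on 3L and 54.3% on 3R. The difference was -8.34 percentage points (-13.8 to -2.78), -8.72 in replicate 2 and -9.29 in replicate 3, and against 2L alone its interval reached 0 (-6.31, -13.2 to 0.63). Intergenic sequence held 48 X summits. This was 7.97% (6.07% to 10.4%), against 15.4% on the autosomal arms, a difference of -7.38 percentage points (-10.4 to -3.82). It was -7.90 in replicate 2 and -7.11 in replicate 3, but against 3R alone, where intergenic summits made up 11.9%, the interval reached 0 (-3.95, -7.80 to 0.03).

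**Figure D3:**
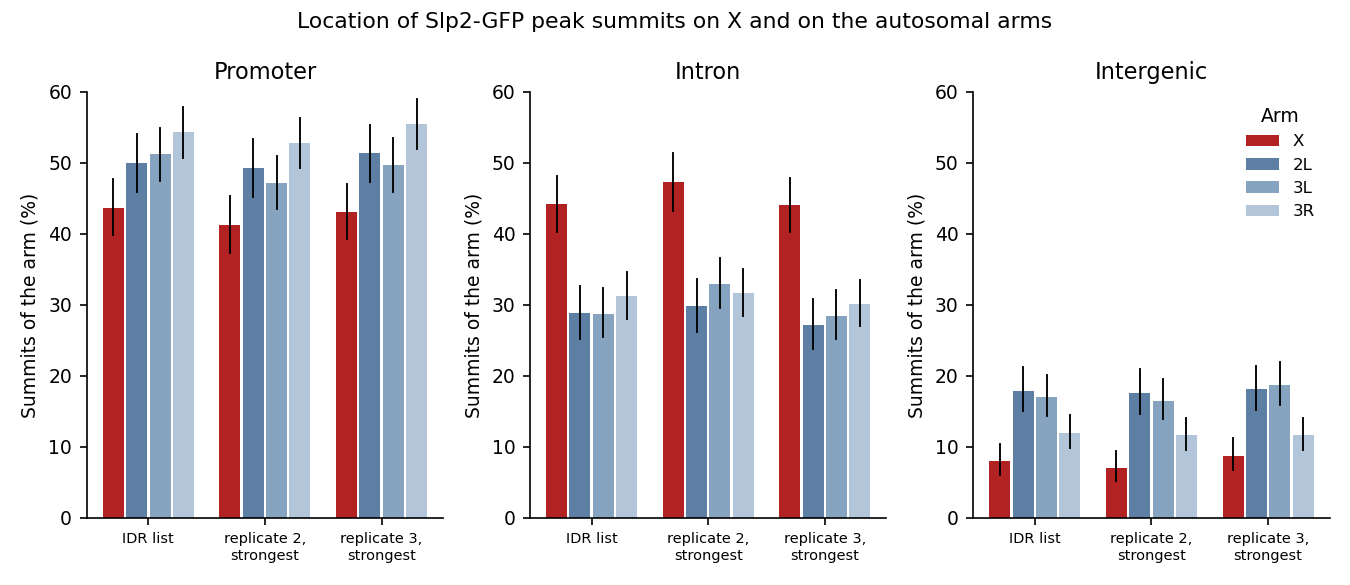
Share of summits (y axis, percent of the summits of each arm) in promoters, introns and intergenic sequence for X and the autosomal arms 2L, 3L and 3R, in the IDR list and in as many of the strongest peaks of each replicate, with 95% Wilson intervals. In all 3 lists the intron bar of X, between 44.0% and 47.4%, stands above those of the 3 autosomal arms.

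The make-up of the chromosome was set beside this. Introns cover 40.8% of X and 37.1% of the autosomal arms, and 3R, where they cover 41.1%, had 31.3% of its summits there. Whether intron content accounts for the intron share of X was not tested. Per Mb of intron there were 27.7 summits on X and 19.1 on the autosomal arms, a ratio of 1.45 (1.25 to 1.68). The ratio was 1.35 against 2L, 1.41 against 3L and 1.55 against 3R, and each of these intervals lay above 1. Keeping the strongest peak of each run of summits at most 5 kb apart left 424 X and 1440 autosomal peaks and a ratio of 1.41 (1.18 to 1.69). Per Mb of promoter X had 101 summits and the autosomal arms 110, a ratio of 0.923 (0.803 to 1.06), which lay below 1 with replicate 2 alone (0.860, 0.743 to 0.992). Per Mb of intergenic sequence it had 9.88 summits and the autosomal arms 14.04, a ratio of 0.704 (0.508 to 0.957), which reached 1 with replicate 3 alone (0.781, 0.576 to 1.04). The intron value is thus the one that stood apart in each replicate and against each arm.

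**Figure D4:**
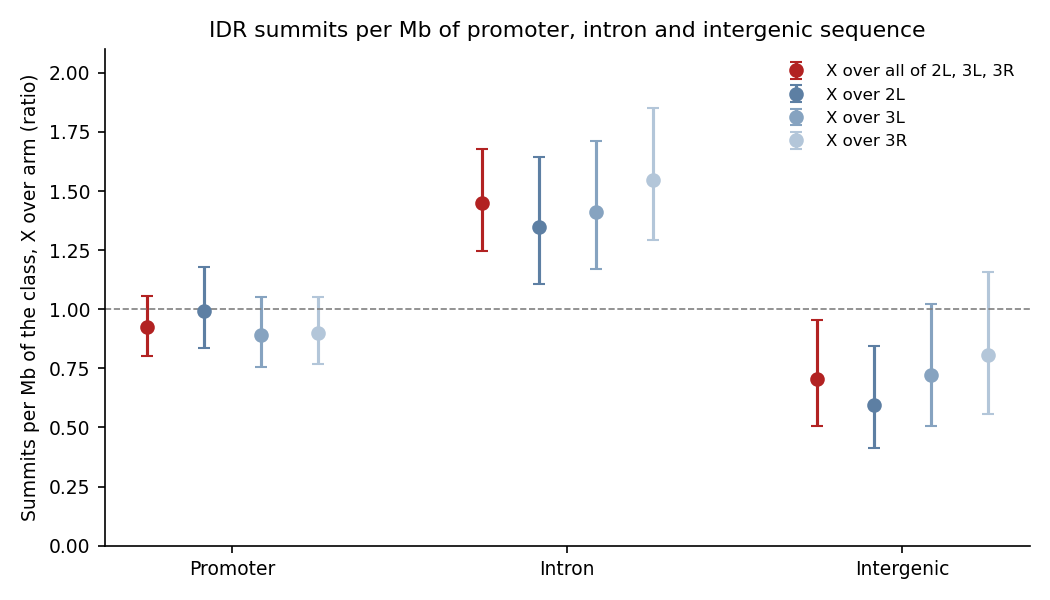
Ratio of IDR summits per Mb of promoter, intron and intergenic sequence on X to those on 2L, 3L and 3R together and on each arm alone (y axis), with exact 95% intervals and equality dashed. The intron ratios lie between 1.35 and 1.55, while the promoter ratios lie between 0.893 and 0.993.

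The lower promoter share held for strong peaks and not for weak entries. Among the strongest 300 peaks of replicate 2, promoters held 45.0% of the X summits and 62.0% of the autosomal ones, and in replicate 3 they held 44.4% on X and 64.3% on the autosomal arms. For ranks 3204 to 10000 the order was the other way round, with 45.2% on X and 41.7% on the autosomal arms in replicate 2, and 29.8% on X and 21.9% on the autosomal arms in replicate 3. The intron share was higher on X in all 5 rank ranges of both replicates.

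Of the 266 intronic X summits 253 lay in introns of protein-coding genes, and 13 in those of non-coding genes. The 253 were spread over 151 protein-coding genes, 6.88% of those on X, and 95 of these genes held a single one. On the autosomal arms 393 genes held intronic summits, 4.46% of those there. The intronic summits lay a median of 2618.5 bp from the nearest TSS on X (95% interval 2068 to 3165) and 2690.5 bp on the autosomal arms (2332 to 3135). Their median signal was 107 on X and 98.8 on the autosomal arms, and for promoter summits it was 103 on X and 104 on the autosomal arms. Of the promoter summits, 80.2% lay upstream of the TSS on X and 83.6% on the autosomal arms, at a median distance of 154 bp on X and 107 bp on the autosomal arms.

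On X, 7 genes held 5 or more intronic summits and 54 in all, and on the autosomal arms 10 genes held 57. The X genes were CG1677 with 12, Raf and kirre with 9 each, Hr4 with 7, CG14434 and CHES-1-like with 6 each and Tlk with 5. CG1677 spans 124709 bp and encloses other genes such as CBP. A run with 4 intronic summits inside it lay nearest to brk and unc-119. Another run inside it, also with 4 intronic summits, lay nearest to CBP and CG42780. The strongest peak within CG1677, in the promoter of CBP, was 50878 bp from the nearest start of CG1677. Hr4 encodes a nuclear receptor of the ecdysone response, CHES-1-like a forkhead family protein, and kirre an immunoglobulin-family receptor of the founder cells in myoblast fusion. The span of kirre also encloses other genes, such as w and rst. An intronic summit near w, nearest to the start of CG32795, lies within it, so summits counted for kirre can belong to enclosed genes.

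Summits within the gene body or 5 kb of it, which can belong to more than 1 gene, gave a similar order. Here CG1677 had 15, kirre 13, Raf 11, CHES-1-like and Hr4 10 each, CG14434 9, ph-p 7, and Tlk and dnc 6 each, and 13 further genes had 5. Gene length differs widely among them. CG14434 had 0.356 summits per kb of its window, ph-p 0.316 and CHES-1-like 0.270, while kirre, which spans 394149 bp, had 0.032.

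Runs of neighbouring summits were seen at the same genes. With a distance of 5 kb the 602 X summits fell into 424 runs, of which 319 were single summits and 18 held 4 or more. The longest were 10 summits over 12838 bp at Raf, 10 over 18727 bp at CHES-1-like, 9 over 18067 bp at CG14434 and 6 over 7463 bp at ph-p. In the run at Raf 8 of the 10 summits were intronic, and in that at ph-p 4 of 6 were in promoters. The share of X summits with another within 5 kb was 47.0%, against 47.7% on the autosomal arms, a difference of -0.66 percentage points (-6.18 to 4.89). Within 2 kb the share was 31.1% on X and 24.3% on the autosomal arms, a difference of 6.75 (1.83 to 11.9), so this result depends on the distance chosen.

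The peaks were unevenly spread along X, and also along each autosomal arm. On X the 23 full windows of 1 Mb held 2 to 47 peaks, with a median of 28. Such windows held 2 to 44 peaks on 2L (median 26), 0 to 60 on 3L (median 22.5) and 0 to 48 on 3R (median 23). Their standard deviation was lowest on X, so this unevenness was not particular to X. The X windows from 6 to 7 Mb and from 7 to 8 Mb held 47 and 46 peaks, and that from 2 to 3 Mb held 43. The last full window of X held 2, and the rest of X beyond 23 Mb, with 13 protein-coding genes, held 0. The X window richest in protein-coding genes, from 15 to 16 Mb with 141, held 22 peaks.

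The share of genes near a peak was close on X and on the autosomes. An IDR summit lay in the body or within 5 kb of 834 of 2196 protein-coding genes on X, which is 38.0%, and of 3546 of 8817 on the autosomal arms, which is 40.2%. The difference was -2.24 percentage points (-4.82 to 0.38). Counting the gene body alone turned it round, to 11.9% on X and 8.67% on the autosomal arms, a difference of 3.22 (1.60 to 4.98). The median X gene is 2521 bp long, against 1986 bp on 2L, 2130 bp on 3L and 2124 bp on 3R. A summit within 500 bp of an own TSS was found for 306 X genes, 13.9%, and for 1393 autosomal genes, 15.8%. That difference was -1.86 percentage points (-3.67 to 0.07), and its interval lay below 0 with replicate 2 alone (-2.06, -3.79 to -0.21).

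Genes of 11 groups on X were then read against the 38.0% of X genes near a peak. The groups overlap, and a peak can lie near several genes. A longer window is likelier to hold a peak, and the groups differ in length. The median window was 33436 bp for adhesion, polarity and muscle, 31590 bp for embryo patterning and 25011.5 bp for achaete-scute and neural genes. It was 19297 bp for the Notch, EGFR and JAK/STAT group, against 12521 bp over all X genes. Of 111 distinct genes 60 had a peak and 51 had none, and 44 of these 51 had an entry in the relaxed pooled list, with signal values up to 62.8. The median of the strongest signal was 122 over all X genes near a peak.

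In the dosage compensation group 2 of 3 genes had one. A peak just beyond the 3' end of roX2, 259 bp from the start of nod, had 60.8 in replicate 2 and 64.1 in replicate 3. The peak near mof, the acetyltransferase of the MSL complex, had 60.8 in replicate 2 and 20.7 in replicate 3, and lay in the promoter of Usp30. The other roX gene, roX1, had no IDR peak, and its strongest relaxed entry had 31.8 in replicate 2 and 22.6 in replicate 3.

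Of 6 genes of sex determination and X counting 3 had a peak. The master switch Sxl had 3 summits, the strongest 421 bp from one of its start sites with 81.3 in replicate 2 and 59.9 in replicate 3. The X-counting gene sisA had 1 with 40.3 and 32.8 in replicates 2 and 3, in an intron of Gapvd1, and snf had 2, the stronger with 46.8 and 26.4. The counting genes sc, upd1 and run had none. The median strongest signal of this group was 73.0, below the median of all X genes near a peak.

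Among 10 embryo patterning genes 5 had a peak and 0 had one in an own promoter. Near oc, the head gap gene also called orthodenticle, an intergenic peak had 103 in replicate 2 and 97.4 in replicate 3. The BMP antagonist sog had 3, the strongest intronic with 65.8 in replicate 2 and 54.1 in replicate 3. The transcription factor gene bi had an intronic peak, with 53.5 in replicate 2 and 44.9 in replicate 3. The peak of ovo, another transcription factor gene, lay 1512 bp upstream of it, in an intron of a non-coding gene, with 61.4 in replicate 2 and 44.0 in replicate 3. Those without a peak included run, a pair-rule gene, gt and btd, gap genes, and Sp1. At run, a gene of the segmentation network to which Slp2 belongs, the strongest relaxed entry had 24.98 in replicate 2 and 20.5 in replicate 3.

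Of 10 genes of the achaete-scute complex and the nervous system 4 had a peak. A peak 254 bp from the start of elav, the pan-neuronal RNA-binding protein, had 157 in replicate 2 and 151 in replicate 3. Near Nrg, a neural adhesion molecule, the strongest had 81.2 in replicate 2 and 37.7 in replicate 3. Near Appl, the amyloid precursor homologue, it had 63.0 and 43.4, and near the sodium channel para 25.9 and 42.0. The genes ac, sc, l(1)sc and ase of the complex itself had no peak.

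Of 8 Wnt and Hedgehog genes 6 had a peak, and 1 had it in an own promoter. That was sgg, with 207 in replicate 2 and 143 in replicate 3. The peak near dsh, the Dishevelled adaptor, had 84.5 and 111 in replicates 2 and 3 and lay in an intron of CG1737. That near the receptor gene fz3 had 88.6 and 105 and is the promoter peak of RpL22. The peak near the ligand gene Wnt5 lay 1944 bp upstream of it, in an intron of Ggt-1, with 50.8 in replicate 2 and 52.7 in replicate 3. The kinase fu and the acyltransferase por had none.

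Of 10 genes grouped under the Notch, EGFR and JAK/STAT pathways 5 had a peak. In this group Bx and hep are not core members of these pathways. Beside Raf these included the receptor N, whose strongest peak in an intron had 98.4 in replicate 2 and 82.1 in replicate 3. They also included Bx, a LIM-only protein, with 52.3 in replicate 2 and 44.5 in replicate 3. The ligand gene upd2 had an intergenic peak with 36.8 in replicate 2 and 50.5 in replicate 3. The kinases hop and hep, the phosphatase csw and the ligand upd1 had none.

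Of 11 genes of adhesion, polarity and muscle 6 had a peak. The strongest of kirre was intronic, with 136 in both replicates. The strongest of baz, the fly Par-3, had 141 in replicate 2 and 65.5 in replicate 3 and lay in a 5' UTR. Near the integrin subunit gene mys the strongest peak lay in an intron of fs(1)h, with 89.2 in replicate 2 and 93.4 in replicate 3. Near if, another integrin gene, it lay in the promoter of goe, with 64.7 in replicate 2 and 97.2 in replicate 3. The kirre paralogue rst, the dynamin gene shi, flw and the muscle gene up had none.

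Genes of chromatin and transcription had peaks at 12 of 16, with 6 in an own promoter and a median strongest signal of 141. After ph-p came Hr4, with 185 in replicate 2 and 133 in replicate 3, and CHES-1-like, with 169 and 109. The adjacent ph-d, a close copy of ph-p whose reads may be hard to tell from it, had a single peak, with 78.4 in replicate 2 and 152 in replicate 3, outside its promoter window. Without a peak were HDAC4, HDAC6, Trf2 and CoRest. The windows of this group were long, with a median of 20565 bp, against 12521 bp over all X genes.

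All 14 cytosolic ribosomal protein genes on X had a peak and 12 of the 14 had one in an own promoter, where 13.9% of X genes did. For 10 of them the strongest peak was in the own promoter, 7 to 71 bp from a TSS. The strongest peak of RpS10b had 129 in replicate 2 and 110 in replicate 3, and that of RpS28b had 95.2 and 125. RpS14a and RpS14b are near-identical tandem copies whose reads may be hard to tell apart, and they share their 4 peaks. The strongest of these, with 69.5 in replicate 2 and 120 in replicate 3, lay in an intron of Ubr3. Over the 14 genes the strongest peak ran from 25.5 to 130 in replicate 2 and from 44.9 to 125 in replicate 3, so these were not among the leading X peaks. Their windows had a median of 11603 bp, close to that of all X genes.

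The group of egg shell, yolk and pigment genes and that of chemoreceptor genes had peaks least often. Of the 13 genes of the egg shell, yolk and pigment group 2 had a peak within 5 kb, w and f, and 0 had one in an own promoter. In this group f and m are of none of the named kinds. The peak near w lay in an intron of CG32795, with 66.3 in replicate 2 and 70.8 in replicate 3, and that near f had 24.8 and 45.1. The chorion protein genes Cp36, Cp38, Cp7Fa and Cp7Fb, which lie close together, had none. Of 14 chemoreceptor genes 2 had a peak, Gr5a and Or9a, both closer to the start of another gene. Gr10a and Or10a have the same coordinates, so both groups hold fewer separate loci than genes. The windows of these groups, with medians of 12002 and 11467.5 bp, were about as long as those of ribosomal protein genes.

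The motif letters searched were TAAACA and GTAAACA (forkhead), GAGAG and GAGAGAGA (GAGA factor), CACACACA (a dinucleotide repeat), TATCGATA (the DREF element), GGTCACACT (the core promoter motif bound by M1BP) and CAGGTAG (Zelda), on both strands within 100 bp of the summit. GTAAACA contains TAAACA, and GAGAGAGA contains GAGAG. The forkhead core stood at 25.7% of X summits (22.4% to 29.4%) and 26.1% of autosomal summits, a difference of -0.37 percentage points (-5.70 to 5.40, at 95% over the 8 motifs). Windows 1 kb away from X summits held it in 19.4%, and all windows of X in 16.7%. The longer GTAAACA stood at 5.98% of X summits and 7.20% of autosomal summits.

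Of the other motifs, CACACACA differed most. It stood at 5.81% of X summits and 3.35% of autosomal summits, a difference of 2.46 percentage points (-0.01 to 5.79) whose interval includes 0. Over all windows of the arms the letters were found in 5.77% on X and 3.79% on the autosomal arms, so that X summits held them about as often as X at large. GAGAG stood at 24.1% of X summits and 23.3% of autosomal summits, where all windows of X gave 21.5% and those 1 kb away from X summits 26.4%. TATCGATA stood at 3.65% of X summits and 3.95% of autosomal summits, against 0.706% of all windows of X, and 19 of its 22 X summits were in promoters. It is more frequent at X promoters at large, where 9.44% of the TSS windows held it, than at autosomal ones with 5.79%. Among promoter summits the shares were 7.22% on X and 7.50% on the autosomal arms. GGTCACACT stood at 1.66% of X summits and 1.70% of autosomal summits, and CAGGTAG at 1.66% of X summits and 0.85% of autosomal summits. None of the 8 differences had an interval that left out 0 in the IDR list.

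**Figure D5:**
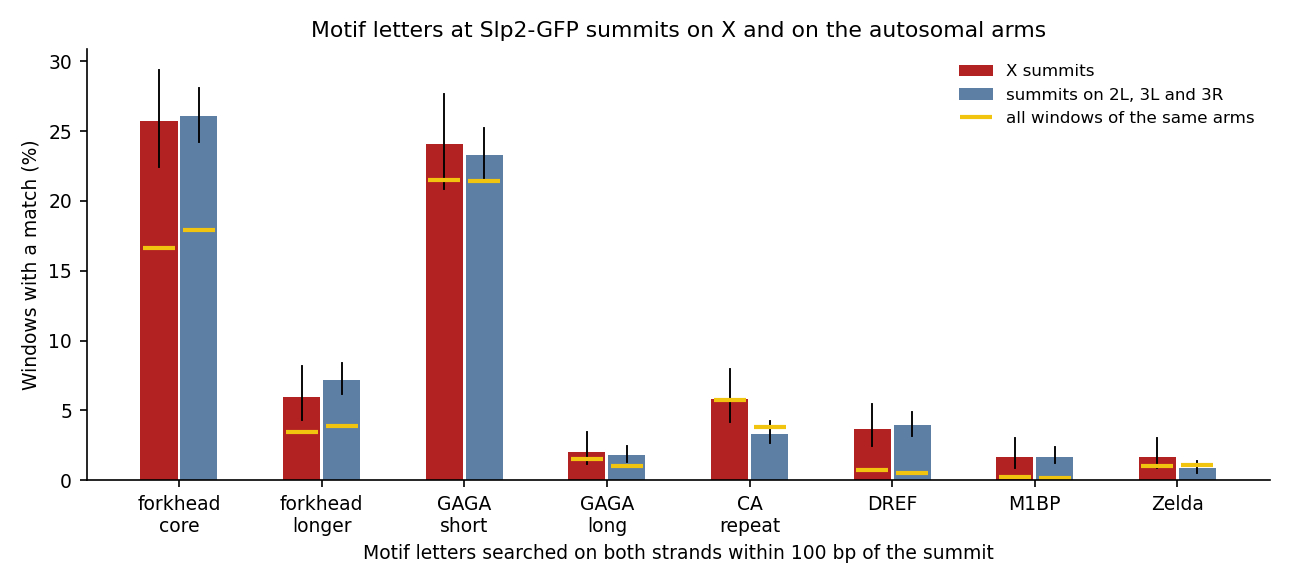
Share of windows with a match (y axis, percent) for 8 sets of motif letters within 100 bp of the summits on X and on 2L, 3L and 3R together, with 95% Wilson intervals, and in all windows of the same arms (yellow marks). The forkhead core stands at 25.7% of X summits and 26.1% of autosomal summits, above the 16.7% of all X windows.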

How the data were processed

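Whole embryos of 1 group were assayed by ChIP-seq in 2 samples, biological replicates 2 and 3 per the labels. The authors deposited narrowPeak lists for dm6 and dm3: a relaxed list for each replicate, a relaxed list pooled over both, and an IDR list, per the deposited readme files. The deposited signal value is a caller score without a stated scale. It served for ranks and ratios inside a list, and to compare the replicates at matched summits. Whether the replicate lists share a scale is not known, so the ratios between replicates may include a difference in scale. The authors also gave -log10 q values, which were at their maximum for most IDR peaks and were not used further. The aligner, the caller and the IDR threshold are not given in the sources used here, and depth is unknown. Every row of the IDR list was checked to be among the strongest 3203 of the pooled list, so its signal values are pooled and have no error of their own. No row of the replicate lists was identical between the replicates in arm, start and signal value.

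Summits on dm6 were classed with Ensembl release 115 (BDGP 6.54) as promoter (500 bp either side of a protein-coding TSS) and, outside promoters, as UTR or coding exon, exon of a non-coding gene, intron or intergenic. Sequences came from the Release 6 assembly of RefSeq, which is dm6. Motif letters were searched on both strands within 100 bp. Densities were compared by rate ratios with exact conditional 95% intervals, and shares by Newcombe intervals widened so that 95% holds over a family (3 locations, 3 peak traits, 2 gene measures, 8 motifs). Medians have exact order-statistic intervals. A difference was read as holding where the interval left out equality in the IDR list, the sign was the same in the strongest 3203 peaks of each replicate and X lay outside the range of the 3 autosomal arms. No p-values were computed, because the peaks of 1 group are not replicates.

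The genes named are the gene with the nearest TSS of each of the 20 strongest X peaks, the 10 X genes with the most summits in the body or within 5 kb (9 are given, since 13 tie for the last place), and of each group the 4 members whose peaks were strongest and the first 4, by symbol, that had none, or as many as there were. The X peaks, gene groups and motifs were chosen with earlier results of these data known. Alternatives changed the peak set, the replicate, the build, the windows, the overlap rule and the arm compared. Measures per Mb of promoter, intron and intergenic sequence were chosen after seeing the data, as were the use of 1 peak per run, of protein-coding introns only and of replicate entries matched to a single summit. The procedures were tested on simulated data. Python 3.11.15, numpy 2.4.6, scipy 1.17.1 and pandas 2.3.3 were used.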

Additional observations from a re-analysis of the deposited data

How the results depend on the processing

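No paired analysis was possible because the samples form 1 group. The higher intron share on X kept its sign and its side of equality under all 10 alternatives run, between 12.9 and 17.7 percentage points, and the ratio per Mb of intron did so under all 7, between 1.35 and 1.64. The promoter share lost its call against 2L alone (-6.31 percentage points) and kept it otherwise, with -9.29 to -8.72 when a replicate was left out. The intergenic share lost it against 3R alone (-3.95), with -7.90 to -7.11 when a replicate was left out. Summits per Mb of intergenic sequence reached equality against 3L (ratio 0.723), against 3R (0.806) and with 1 peak per run (0.768), and without a replicate the ratio was 0.604 to 0.781. The promoter ratio was 0.860 to 0.945 without a replicate, and at 0.860, with replicate 2 alone, its interval left out 1. Peak density passed equality per protein-coding gene (1.21) and was 1.01 to 1.12 without a replicate. The ratio of median signals moved to 1.00 in the stronger 50% of the list, 0.970 against 2L and 1.06 against 3R, and was 1.00 to 1.02 without a replicate. The share of the top 10% was a difference of 0.43 with dm3, 0.83 against 3L and 0.20 against 3R, and -1.45 to 1.34 without a replicate. Genes with a peak turned round when only the gene body was counted (3.22). Genes with an own promoter peak passed equality in the stronger 50% (-1.68) and with a 250 bp window (-2.49), and were at -2.06 to -1.52 without a replicate. Clustering was higher on X in the stronger 50% (4.87), with dm3 (1.85), within 2 kb (6.75) and within 10 kb (2.50), and was 0.80 to 3.48 without a replicate. Of the 8 motifs, 0 passed in the IDR list, 1 against 3R and 0 to 1 without a replicate, each time CACACACA. Motif differences that were never past equality changed sign with a window of 50 bp for TAAACA (0.21), GTAAACA (0.13), GAGAG (-1.003), GAGAGAGA (-0.47), TATCGATA (0.66) and GGTCACACT (0.20). They did so against 3R for TAAACA (0.18), GAGAG (-0.42) and GAGAGAGA (-0.13), against 2L for TATCGATA (0.55) and against 3L for TATCGATA (0.49) and GGTCACACT (0.31). Without a replicate TAAACA ran from -2.11 to 0.52 and TATCGATA from -0.58 to 0.51. The cause of these changes was not tested, and depth being unknown, what it limits cannot be stated.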
